A study of Homo sapiens with 2 samples.

Results

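The AKAP9 to KRIT1 locus is a stretch of 320 kb on the long arm of chromosome 7 that holds the genes AKAP9, CYP51A1, LRRD1 and KRIT1. It held 11 of the 2692 peaks of RNA recovered with GATA2. The members were chosen by the positions of the peaks themselves: every peak counts whose midpoint lies between 91560000 and 91880000 on chromosome 7 (hg19), a window picked because peaks crowd there. Their density is therefore a description and supports nothing by itself.

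Both libraries came from K562, an established leukaemia line, with a GATA2 transgene, induced with doxycycline (1 µg/mL, 5 hours) and labelled with 4-thiouridine (100 µM, 24 hours), a nucleoside that crosslinks RNA to bound protein under light at 365 nm (0.3 J/cm2). One library is the HA immunoprecipitate (GATA2_HA-IP) and the other is its input (GATA2_Input), so there is 1 library per group. The assay is a modified seCLIP, in which RNA that stays attached to a precipitated protein is trimmed and sequenced. The values here are the peak list of the immunoprecipitate. Input values were not analysed here, the read depth is unknown, and no peak has a replicate check or a test.

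GATA2 is a zinc finger factor that binds DNA and is required in blood stem and progenitor cells. In CLIP data, a peak marks where sequenced RNA fragments pile up on the genome, and a peak inside a gene can come from its precursor RNA as well as from its mature RNA. AKAP9 encodes a very large scaffold protein of the centrosome and Golgi that anchors protein kinase A. CYP51A1 encodes lanosterol demethylase, an enzyme of cholesterol synthesis, LRRD1 encodes a leucine-rich repeat protein, and KRIT1 encodes a scaffold of the cerebral cavernous malformation complex at endothelial junctions. All 4 symbols were found in the RefSeq gene table (GRCh38.p14), with gene identifiers 10142, 1595, 401387 and 889. That table gives AKAP9 on the plus strand and CYP51A1, LRRD1 and KRIT1 on the minus strand. The peak list has no strand, so a peak cannot be tied to the RNA of 1 strand. Sequences under the peaks, and whether a peak is exonic or intronic, were not analysed here.

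Within this locus the peaks of recovered RNA lay almost entirely over AKAP9. Of the 11 peaks, 10 (90.9%) lay in the AKAP9 interval, from 91.570 to 91.740 Mb, which makes up 53.1% of the window. The CYP51A1 interval (91.741 to 91.764 Mb, 23 kb), the LRRD1 interval (91.77 to 91.81 Mb, 40 kb) and the KRIT1 interval (91.828 to 91.875 Mb, 47 kb) held 0 peaks each, and 0 peaks reached into any of them. The remaining peak lay in the 18 kb between LRRD1 and KRIT1. CYP51A1, the neighbour of AKAP9, thus had no listed peak. The gene intervals used here are rounded to 1 kb, or to 10 kb for LRRD1.

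AKAP9 carried 0.588 peaks per 10 kb, with an exact 95% Poisson interval from 0.282 to 1.08. The 3 other gene intervals together span 110 kb and gave 0 per 10 kb, with an upper bound of 0.335. Taken singly, their upper bounds were 1.60 for CYP51A1, 0.922 for LRRD1 and 0.785 for KRIT1. Each of these is above the AKAP9 rate, so the lack of peaks in any 1 gene does not set it apart from AKAP9. These intervals cover counting error only and overlap, and peaks within a run are not independent of one another. The lowest score in the whole list is 50, so weaker signal over CYP51A1, LRRD1 or KRIT1 would not appear in it.

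**Figure D1:**
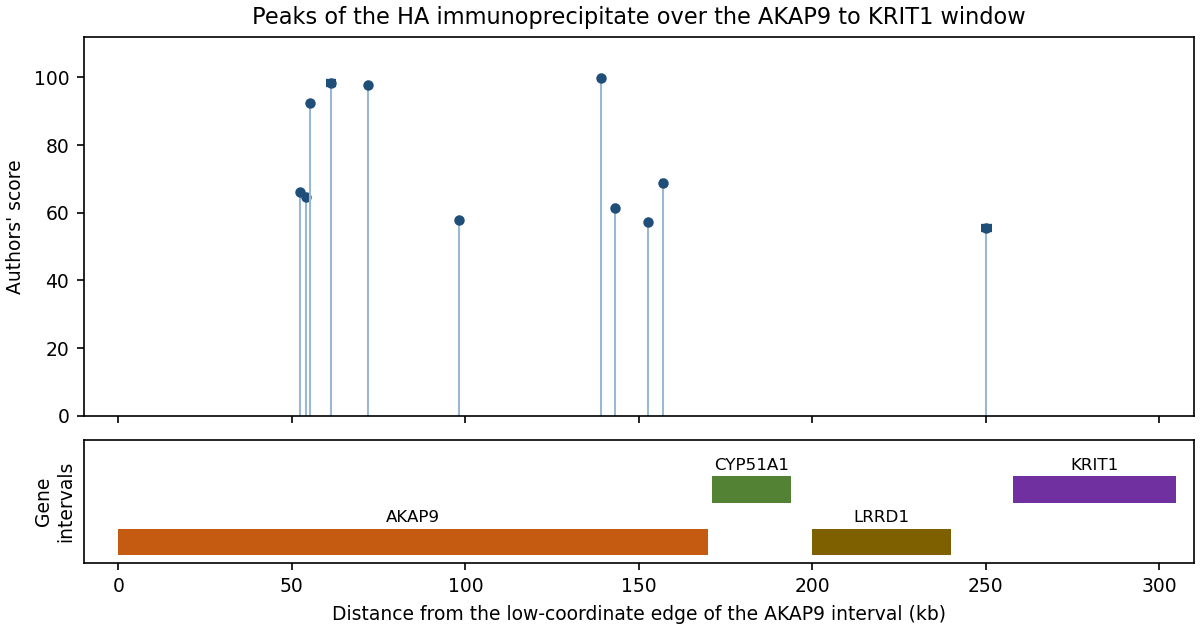
Each line with a point is 1 of the 11 peaks, placed by its distance from the low-coordinate edge of the AKAP9 interval (x axis, kb), and its height is the authors' score (y axis). Coloured bars are the 4 gene intervals. Peaks 1 to 10 stand over AKAP9, in groups of 5 and 4 with 1 peak between them, and peak 11 stands between LRRD1 and KRIT1.

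Inside AKAP9 the peaks were not spread evenly. AKAP9 is read from low to high coordinate, and the first peak began 52.2 kb in from the low edge, after 30.7% of the interval. The last AKAP9 peak ended 12.2 kb before the high edge. Divided into 4 equal parts of 42.5 kb, the interval held 0 peaks in the first part, 5 in the second, 1 in the third and 4 in the fourth. Peaks covered 10.8% of the second part, 1.88% of the third and 11.2% of the fourth.

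The first group comprised 5 peaks within 19.95 kb. It opened with a peak of 381 bp from 91622210 to 91622590, with a score of 66.02. The next, 385 bp from 91623935 to 91624319, scored 64.51. These were the shortest peaks of the locus, and their scores stood near the median of the whole list, 65.9. The third peak, 430 bp from 91624911 to 91625340, scored 92.42. The fourth, from 91629787 to 91632770, scored 98.25 over 2984 bp and was the longest in AKAP9. It was longer than 92.8% of all listed peaks, while the 4 other peaks of the group were each longer than only 8.06% to 17.0% of them. The fifth, 419 bp from 91641741 to 91642159, scored 97.63. The group thus set 4 narrow peaks beside a single broad one, and 3 of its 5 scores were above 90.

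A single peak stood between the groups. It measured 799 bp, from 91667741 to 91668539, and scored 57.73, a value above only 29.5% of the list. It was separated from the group before it by 25.6 kb and from the group after it by 39.9 kb.

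The second group comprised 4 peaks within 19.3 kb near the high-coordinate end of AKAP9. Its first peak, 1262 bp from 91708429 to 91709690, scored 99.84, the highest score of the locus. The peak after it, 1230 bp from 91712496 to 91713725, scored 61.31. These neighbours were nearly equal in length and far apart in score. The third peak of the group, 503 bp from 91722324 to 91722826, scored 57.36, the lowest score in AKAP9. The fourth, 1766 bp from 91726000 to 91727765, scored 68.65. Lengths in this group ran from 503 to 1766 bp with a median of 1246 bp, against a median of 419 bp in the first group. Its median score was 64.98, against 92.42 in the first group. The ranges of both lengths and scores overlapped between the groups. The groups were drawn after the positions were seen, so no test was made.

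The eleventh peak lay slightly beyond the range of the AKAP9 peaks in both measures. It reached from 91818558 to 91821896. Its 3339 bp made it the longest of the locus, against 2984 bp for the longest AKAP9 peak. Its score of 55.54 was the lowest, against 57.36 for the lowest in AKAP9. It was longer than 94.1% of all listed peaks and scored above 22.1% of them. It began 8.56 kb beyond the LRRD1 interval and ended 6.10 kb before the KRIT1 interval. Since LRRD1 and KRIT1 are both on the minus strand, this places it before the start of LRRD1 and past the end of KRIT1 in the direction of transcription. In the RefSeq table the antisense gene CYP51A1-AS1 precedes LRRD1 in order of lowest coordinate, and no other gene comes between LRRD1 and KRIT1 in that order. The order used here gives no gene ends, and the LRRD1 edge is rounded to 10 kb, more than the 8.56 kb distance. Whether CYP51A1-AS1 or LRRD1 reaches across the eleventh peak is therefore not known. From the last AKAP9 peak the eleventh peak was 90.8 kb away, across all of the CYP51A1 and LRRD1 intervals.

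Gaps within the locus were uneven. The 10 gaps between successive peaks ran from 591 bp to 90.8 kb with a median of 6.52 kb. The median over the 2668 gaps of the whole list was 338 kb. Members share a window of 320 kb, so no gap between them could reach that value. Among the AKAP9 peaks alone, the 9 gaps ran from 591 bp to 39.9 kb with a median of 4.45 kb. The smallest gap, 591 bp, lay between the second and the third peak, and it was the only gap of the locus, and of the 147 gaps on chromosome 7, of at most 1000 bp. The next smallest, 1344 bp, lay between the first and the second peak, and the one after that, 2805 bp, between the seventh and the eighth. Of the 11 gaps on chromosome 7 of at most 10 kb, 7 lay in AKAP9.

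The spacing was not that of a regular array. Midpoint spacings had a coefficient of variation of 145%, or 115% within AKAP9, and the widest was 93.5 times the narrowest. Successive spacings differed by at least 36.0% of the wider one.

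The locus stood in an otherwise nearly empty stretch. The 2 Mb before the window held 0 peaks, and the 2 Mb after it held 1, from 93375551 to 93376527, with a length of 977 bp and a score of 72.18. The window thus had 34.4 peaks per Mb, against 0.25 per Mb over the 4 Mb of flanks, with exact 95% Poisson intervals from 17.2 to 61.5 and from 0.0063 to 1.39. The rest of chromosome 7 held 0.878 peaks per Mb (137 peaks), a value inside the interval of the flanks. The flanks are thus not shown to be emptier than the rest of the chromosome. Peaks covered 4.22% of the window and 0.0244% of the flanks. As the window was drawn around the crowding, these densities, shares and intervals describe it and do not test it. That the intervals of window and flanks lie apart follows from that choice. They cover counting error only, and peaks within a run are not independent of one another.

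No peak lay near either edge of the window, so its exact bounds did not decide the members. The first member lay 62.2 kb inside the low edge and the last 58.1 kb inside the high edge. The nearest peak before the locus ended at 87506333, 4.12 Mb away, with a length of 499 bp and a score of 50.63. A gap at least that wide occurred 172 times among the 2668 of the list (6.45%), and 8 times among the 147 on chromosome 7. The nearest peak after the locus was 1.55 Mb away, and 22.8% of the gaps in the list were at least that wide.

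**Figure D2:**
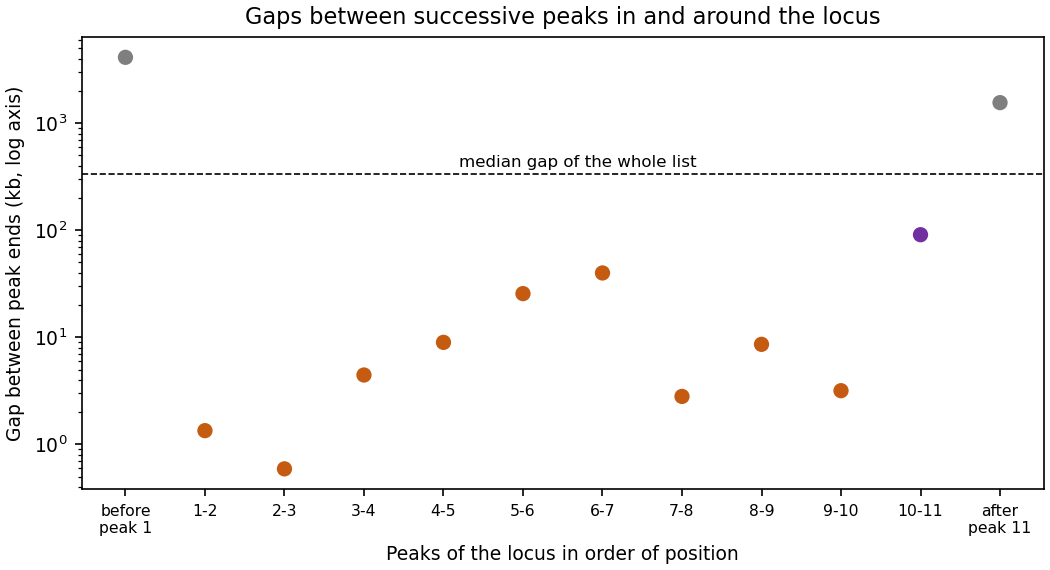
Gaps between the ends of neighbouring peaks (y axis, kb, log scale) in order along the locus. Orange points are gaps among the 10 AKAP9 peaks, the purple point is the gap of 90.8 kb to the eleventh peak, and grey points are the gaps to the nearest peaks outside. All gaps within the locus lie below the median gap of the whole list (dashed, 338 kb), as they must in a window of 320 kb. Both outer gaps, 4.12 and 1.55 Mb, lie above it.

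The peaks of the locus are set here beside the whole list, which includes them. Their median length was 799 bp (quartiles 424.5 and 1514 bp), against 851 bp (514 and 1348 bp) for all peaks, and their median score was 66.02 (59.5 and 95.0), against 65.9 (56.3 and 85.9). The median length changed when close neighbours were joined: with peaks within 1000 bp merged, it was 1246 bp over 10 peaks, against 855 bp for all merged peaks. A 95% interval for the unmerged median length of the locus, taken from the ordered lengths, ran from 385 to 2984 bp. The lengths themselves ran from 381 to 3339 bp, so the interval took in nearly their whole range. It also treats neighbouring peaks of the same library as independent, which they are not. It holds all of these median lengths, but for these reasons it cannot decide whether they differ. Of the 11 peaks, 4 (36.4%) were shorter than 500 bp, as were 24.1% of all peaks. All 4 of these belonged to the first AKAP9 group. At the other end, 5 peaks of the locus (45.5%) were longer than 1000 bp, as were 38.8% of all peaks. These 5 made up 78.4% of the summed peak length of the locus, 13.5 kb.

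The scores of the locus are described on either side of 90, a level inside a gap among these same scores. None of its 11 peaks scored above 100, a level passed by 16.0% of all peaks, and 4 scored above 90 (36.4%, against 21.4% of all peaks). These 4 ran from 92.42 to 99.84 and all lay in AKAP9, 3 in the first group and 1 in the second. The other 7 ran from 55.54 to 68.65, which left no score between 68.65 and 92.42. The highest-scoring AKAP9 peak ranked 432 in the whole list. No test was made of these differences or of the gap in scores, since peaks of 1 library are not replicates.

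Length and score showed little relation across the 11 peaks (Pearson's r 0.01, Spearman's rho -0.03). Without the longest and the highest-scoring peak, rho was 0.12 over 9 peaks, and within AKAP9 it was 0.30 over 10 peaks. The peaks share 1 library and 1 locus, so these values are descriptions.

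**Figure D3:**
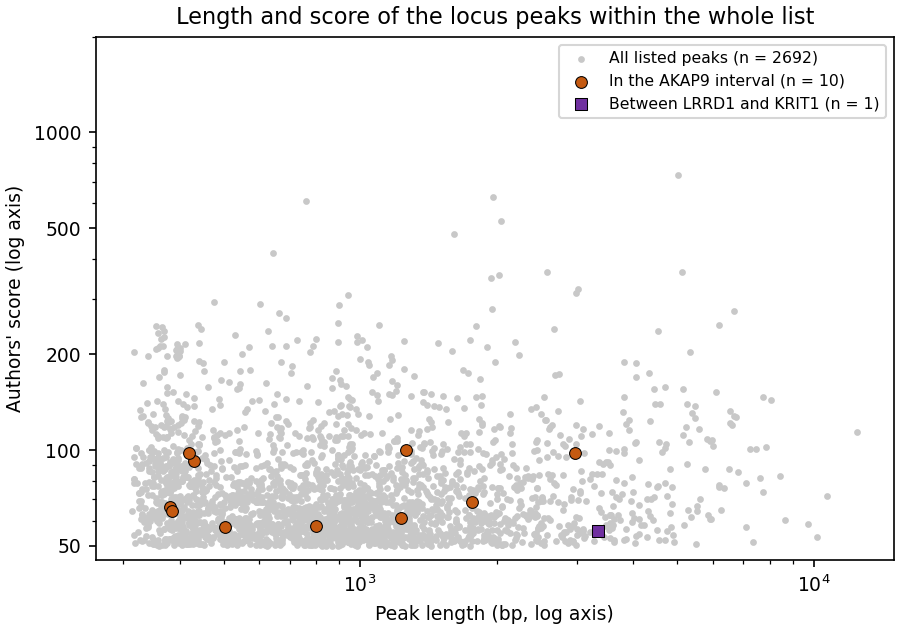
Length (x axis, bp) against the authors' score (y axis), both on log scales, for all 2692 peaks in grey, the 10 AKAP9 peaks as orange circles and the peak between LRRD1 and KRIT1 as a purple square. The AKAP9 peaks run from 381 to 2984 bp and from 57.36 to 99.84 in score, inside the cloud of the other peaks, and the square is longer and lower than all 10 AKAP9 peaks.

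Few stretches of the genome were as crowded. Of 9470 non-overlapping windows of 320 kb outside the locus, 4 held at least 11 peaks, 29 held 6 to 10, 483 held 2 to 5 and 81.6% held none. Fixed windows can split a run, though a fixed window touching the locus also held 11 peaks. With windows centred on each peak, 7 other stretches held at least 11. The locus was chosen for its crowding, so this rank only describes it. The 10 AKAP9 peaks spanned 105.6 kb, and 10 successive peaks fitted into that span or less in 6 other stretches of the list. These lay on chromosomes 1 (2 stretches), 16 (3 stretches) and X (1 stretch). The AKAP9 run was the only one of them on chromosome 7. The limit was the AKAP9 run's own span, and that run had the fewest peaks and the widest span. The 6 others held 11 to 18 peaks each within 74.7 to 101 kb.

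Beside those 6 stretches, the AKAP9 run had the fewest peaks around it. There, 2 peaks lay within 2 Mb on either side of it, the one between LRRD1 and KRIT1 and the one at 93375551, whereas the 6 others had 5 to 27 such peaks with a median of 16. The nearest of its outside peaks, however, was 90.8 kb away, closer than in 5 of the 6 others, whose median was 181 kb. Its median score of 67.3 fell among theirs, which ran from 62.8 to 197 with 3 above and 3 below it. Its median length of 651 bp also fell among theirs, from 399.5 to 1323 bp. The coefficient of variation of its spacings, 115%, had 3 of the 6 above it and 3 below it. The comparison was drawn up with the AKAP9 run in view and was not tested.

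**Figure D4:**
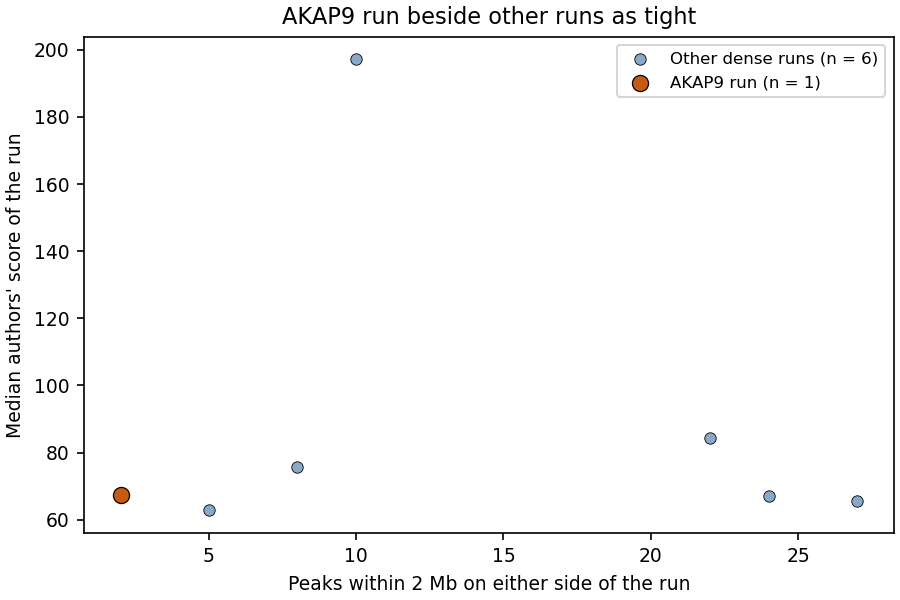
Median authors' score (y axis) against the number of peaks within 2 Mb on either side (x axis) for the AKAP9 run in orange and the 6 other stretches in which 10 successive peaks span at most 105.6 kb in blue. The AKAP9 run has 2 peaks around it and the others 5 to 27, while its median score of 67.3 lies within their range. The AKAP9 run itself holds 10 peaks and the others 11 to 18 each, in shorter spans.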

How the data were processed

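The deposited file is a peak list of the HA immunoprecipitate from K562 cells with a GATA2 transgene. The submitters' processing notes name the build hg19 and, without a role, the tools Bowtie2, SAMtools, bedtools, cutadapt and UMI-tools (1.0.0). Peak names begin with MACS. The sources used here do not give its settings, the use of the input or the handling of multiply mapping reads, and each can change which peaks exist and how broad they are. The score is the authors' deposited value per peak, of unstated scale, and was used only within the list. The file gives no counts, so depth is unknown.

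Positions were counted from 1. A peak belonged to the locus or to a gene by its midpoint. Gene intervals were taken as rounded hg19 positions, RefSeq names and strands from GRCh38.p14, and no coordinate was converted. Gaps run from the end of a peak to the start of the next. Poisson intervals are exact, at 95%. All 4 genes and all 11 peaks were named, as the naming rule requires. The members, intervals and comparisons were chosen with earlier results of these data known. Scripts were tested on 20 simulated lists with a planted run of peaks, using pandas 2.3.3, numpy 2.4.6, scipy 1.17.1 and, for plots, matplotlib 3.10.9 under Python 3.11.15.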

Additional observations from a re-analysis of the deposited data

How the results depend on the processing

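With only the 1346 of 2692 peaks at or above the median score, the locus held 6 of its 11 peaks. All 6 lay in AKAP9, and peaks covered 2.26% of the window. The locus thus kept about the share of peaks that the cut leaves of the whole list. The peak between LRRD1 and KRIT1 dropped out because its score is below that median. The flanks held 0 peaks per Mb at 1 Mb on each side and 0.4 at 5 Mb on each side. With windows centred on each peak in place of fixed windows, 7 other stretches held at least 11 peaks in place of 4. Spearman's rho of length with score was 0.12 without the longest and the highest-scoring peak. Assigning peaks by any overlap of at least 1 bp, or merging peaks within 100 bp, left the locus at 11 peaks, and merging within 1000 bp joined 2 AKAP9 peaks and left 10. CYP51A1, LRRD1 and KRIT1 held 0 peaks under each of these settings. Merging within 1000 bp also raised the median length in the locus from 799 to 1246 bp, by joining a single pair of 385 and 430 bp. The coefficient of variation of the spacings was 145% as listed and ran from 115% to 135% under 3 settings chosen after seeing the data. The precision of a peak's score cannot be given, as the list has neither read counts nor a second library. No paired analysis was possible because there is 1 library of each kind.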
